A study of Mus musculus with 16 samples.

Results

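The genes described here carry calcium and lipid signals from the cell surface to protein kinases and phosphatases: the calmodulins, the calmodulin-dependent kinases, calcineurin with its regulators, protein kinase C and phospholipase C. They were chosen by symbol alone, as every row whose symbol is Calm with a number, starts with Camk, Ppp3, Prkc plus a letter, or Rcan with a number, or is Plc with b, d, e or g and a number. Of the 13277 genes listed, 43 are described: 2 calmodulins, 14 CaM kinase rows, 7 calcineurin rows, 10 protein kinase C rows and 10 phospholipase C rows. Some rows match by name more than by function and are set apart below.

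The study asked what a loss of astrocyte calcium signals does to striatal circuits and to repetitive behaviour. RNA came from whole striata of 8 adult mice that carried RiboTag (B6 background), a ribosomal protein that gains a haemagglutinin tag where Cre is active, and Aldh1l1-Cre/ERT2 (made on FVB and backcrossed to C57BL/6N), an inducible Cre driven by an astrocyte gene. In 4 mice (Y481, Y482, Y483 and Y485) an adeno-associated virus (AAV) delivered a control protein to striatal astrocytes, and in the other 4 (Y486, Y487, Y489 and Y490) it delivered hPMCA2w/b, a human plasma membrane calcium pump that suppresses calcium signals and is called PMCA here. Each mouse gave an input library from the tissue lysate and an IP library from RNA precipitated with the tagged ribosomes, so there were 4 groups of 4 libraries, all with the same alleles: control input, control IP, PMCA input and PMCA IP. Not given in the sources used here were the age in weeks and the promoter inside the virus.

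In this pathway, receptors coupled to the G protein Gq activate phospholipase C, which splits a membrane lipid into inositol trisphosphate and diacylglycerol. Inositol trisphosphate opens calcium channels of the endoplasmic reticulum, and diacylglycerol, for several isoforms together with calcium, switches on protein kinase C. Released calcium binds calmodulin, which then activates the CaM kinases and the phosphatase calcineurin. In striatal projection neurons, CaM kinase II, calcineurin and protein kinase C act on synaptic receptors and on dopamine signalling. Astrocytes use Gq receptors and inositol trisphosphate receptors for much of their calcium release.

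Library totals, summed over the listed genes, were 198462 to 686343 reads, with input libraries shallower (198462 to 419458) than IP libraries (347274 to 686343), and 1 read was worth 1.59 to 4.46 CPM, the unit of reads scaled to a common library total. All levels below are deposited log2 CPM, not corrected for transcript length, so a gene is compared between libraries and never with another gene. Cell type markers were chosen with earlier results of these data known, so they are no independent check of the precipitate. All 14 of the 14 astrocyte markers were called higher in the IP fraction of control mice and of PMCA mice. Their summed level ran from 4568 to 5117 CPM in control input and from 5321 to 6416 CPM in PMCA input, without overlap. In IP it ran from 87050 to 94330 CPM in control and from 78750 to 99500 CPM in PMCA mice. For PMCA against control in input, limma called 0 of 13 tested astrocyte markers. The part of this input difference in the member values was not tested. Projection neuron markers (11 of 11 lower in IP in either treatment) summed to 9472 to 12640 CPM in input and 1043 to 1348 CPM in IP, and pan-neuronal markers (10 of 10 lower) to 4577 to 6005 CPM and 983 to 1306 CPM. Of the markers used to check cell types, interneuron Pvalb had 0 reads in PMCA IP, endothelial Cdh5 had 0 in control IP, endothelial Cldn5 had 0 in PMCA IP and ependymal Ccdc153 had 0 in control input. Mural and ependymal cells each had 1 tested marker, Pdgfrb and Foxj1, and either marker was higher in IP in both treatments. In bulk libraries such as these, fewer cells of a type and less RNA per cell cannot be told apart.

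Of the genes with enough reads to be tested, most were poorer in the astrocyte precipitate than in whole striatum. In control mice 33 of the 43 genes had enough reads to be tested, and limma called 8 higher and 19 lower in IP at an adjusted p under 0.05. Over all 6887 genes tested in control mice, 28.5% were called higher and 26.9% lower. In PMCA mice 31 were tested, 7 were higher and 19 were lower, against 28.1% and 26.6% of 6751 genes. The median log2 fold change over the tested members was -1.33 in control and -1.48 in PMCA mice, against 0.06 and 0.03 over all tested genes. Of the tested members, 3 in control mice (Plcd1, Plcd4 and Prkcdbp) passed the read filter only through IP and 2 (Prkch and Prkcz) only through input, and in PMCA mice 2 (Plcb3 and Plcd1) and 3 (Camkk1, Prkch and Prkcz) did so, so for these a difference was built into the filter. The neuronal markers above moved the same way as the members that were lower. So did other tested markers of control mice: interneurons (4 of 4 lower in IP), oligodendrocytes (7 of 8), their precursors (3 of 3) and microglia (7 of 7). In PMCA mice these were 2 of 2, 6 of 7, 2 of 2 and 6 of 7. The part of any of these cells in the member results was not tested.

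**Figure D1:**
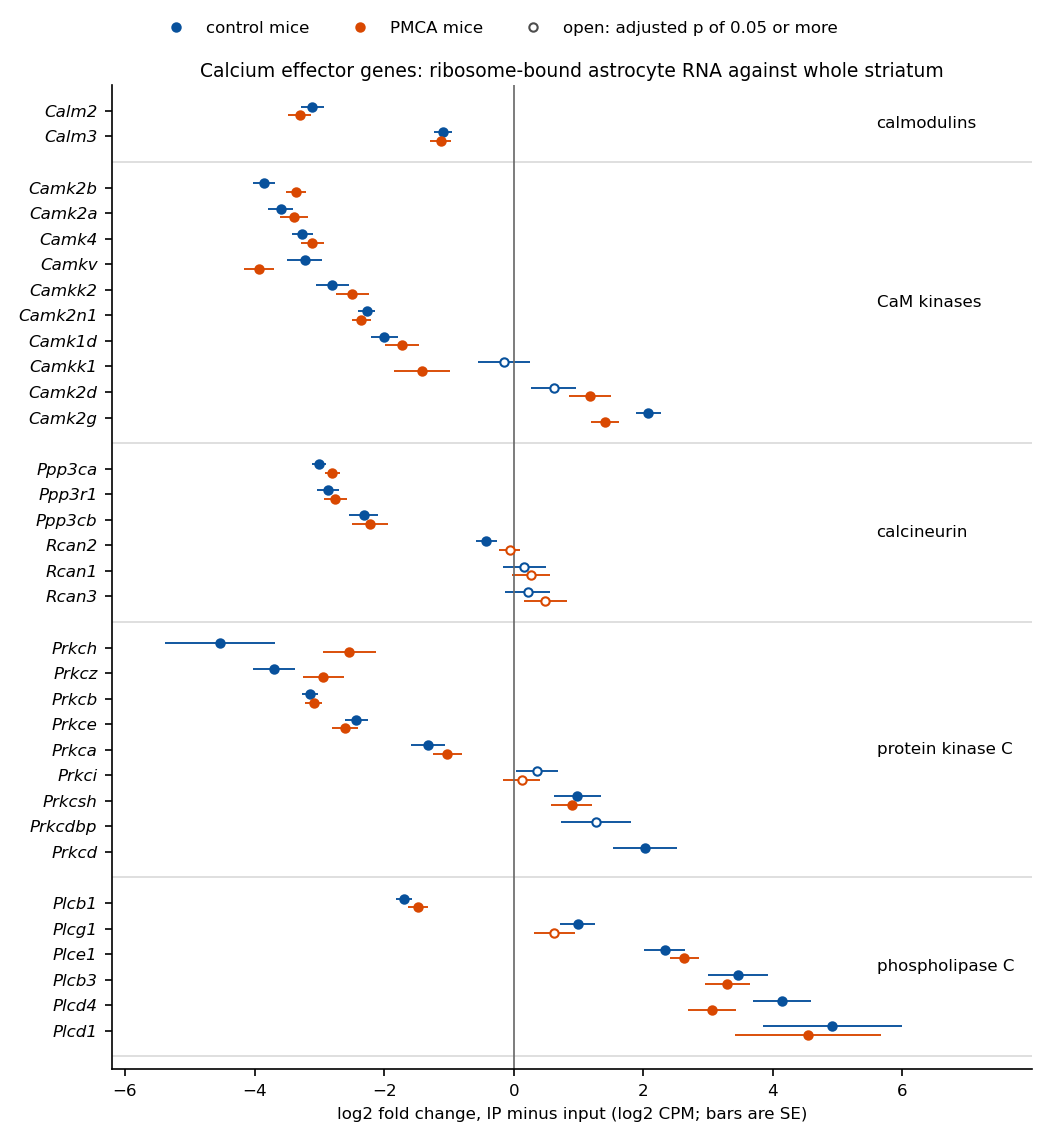
Log2 fold change of IP over input (x axis, differences of mean log2 CPM) for each tested member, grouped by role; points are limma estimates over 4 and 4 libraries, blue for control and orange for PMCA mice, and bars are SE. The phospholipase C genes other than Plcb1 lie right of 0 (Plcd1 at 4.92, Plcb1 at -1.70 in control mice), while Calm2, Calm3 and the calcineurin subunits lie left of it.

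Phospholipase C enzymes, which start the pathway, split by gene. In control mice 5 of the 6 tested were higher in IP (Plcd1, Plcd4, Plcb3, Plce1 and Plcg1) and Plcb1 was lower, and in PMCA mice 4 were higher, Plcb1 was lower and Plcg1 was not called. Over all tested genes 28.5% were higher in control and 28.1% in PMCA mice. Plcd1 and Plcd4 in control mice and Plcb3 and Plcd1 in PMCA mice passed the read filter only through IP, so their difference was built in. Summed over the 10 genes, the level was 941 ± 26.1 CPM in input and 887 ± 116 CPM in IP of control mice, and 862 ± 106 and 992 ± 67.4 CPM in PMCA mice (SD, n = 4 each). The libraries of the fractions overlapped in this sum in both treatments, while the shares of single genes differed. Plcb1 held 86% ± 3.36 of phospholipase C reads in control input and 28.3% ± 1.2 in control IP. Plcb3, Plcd4 and Plce1 held 17.1% ± 3.53, 16.8% ± 3.44 and 18.4% ± 2.62 in control IP, from 1.7% ± 1.2, 0.962% ± 0.619 and 3.62% ± 1.7 in control input. In PMCA mice Plcb1 held 77.8% ± 3.86 in input and 24.2% ± 2.72 in IP, and Plce1 5.03% ± 1.675 and 26.4% ± 3.025. Plcb3 held 1.68% ± 0.675 and 14.3% ± 4.5 there, and Plcd4 2.33% ± 1.12 and 16.2% ± 4.68. Shares were not tested between the treatments. Read shares are not corrected for transcript length, so each is compared between groups only.

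The beta enzymes are the targets of Gq, and Plcb1 and Plcb3 moved in opposite directions. In the library orders given above, Plcb1 stood at 9.62, 9.71, 9.60 and 9.71 log2 CPM in control input and at 8.09, 8.00, 8.01 and 7.77 in control IP. In PMCA mice it stood at 9.67, 9.48, 9.21 and 9.17 in input and 7.92, 7.91, 7.79 and 7.98 in IP. Every IP library lay below every input library (log2 fold change -1.70, SE 0.13, adjusted p = 1.73e-09 in control mice; -1.48, adjusted p = 8.59e-08 in PMCA mice). Plcb3 stood at 4.99, 2.27, 3.45 and 4.29 in control input and 7.27, 6.92, 7.59 and 7.08 in control IP. Its PMCA libraries read 2.97, 4.21, 4.25 and 3.76 in input and 7.07, 7.54, 6.58 and 7.19 in IP. In PMCA mice Plcb3 passed the read filter only through IP, so its difference there was built in. The fractions again did not overlap, now with IP on top (log2 fold change 3.46, SE 0.46, adjusted p = 4.26e-06; in PMCA mice 3.29, adjusted p = 1.39e-07). Input held few Plcb3 reads, 19 over the control group and 20 over the PMCA group, against 286 and 255 in IP, so the ratio of summed reads was 9.71 (95% counting interval 6.11 to 16.4) in control and 9.86 (6.25 to 16.4) in PMCA mice. Plcb4, which lies on the same chromosome as Plcb1 (Plcb1 at chr2:134786164-135475258 and Plcb4 at chr2:135658603-136014602 in GRCm38.p6), and Plcb2, known from blood and taste cells, had too few reads to be tested between fractions. Their ratios of IP to input reads in control mice were 1.48 (0.765 to 2.99; 32 and 14 reads) and 0.553 (0.154 to 1.92; 6 and 7 reads), both with intervals that include 1. Of the 32 Plcb4 reads, 21 came from Y481, and IP was below input in 3 of 4 control mice. Counting intervals cover reads over a summed group and not the spread between mice, and reads without molecular identifiers are not independent molecules.

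Among the delta enzymes, which calcium itself activates, Plcd4 and Plcd1 were higher in IP in every mouse. Plcd4 stood at 3.25, 4.12, 1.68 and 3.13 in control input and 7.53, 7.43, 6.73 and 7.08 in control IP (log2 fold change 4.14, SE 0.45, adjusted p = 2.48e-07). With PMCA its level was 5.20, 3.26, 4.47 and 3.98 in input and 7.20, 7.33, 7.92 and 6.70 in IP (log2 fold change 3.06, SE 0.38, adjusted p = 1.08e-06). Every IP library was above every input library, and the treatments overlapped within each fraction. Plcd4 in control mice and Plcd1 in both treatments passed the read filter only through IP, so these differences were built into the filter. Plcd1 was almost missing from input, with 2 reads over the control group and 4 over the PMCA group against 93 and 74 in IP. Its levels were 5.17, 6.26, 5.65 and 5.30 in control IP and 5.34, 5.27, 5.44 and 5.52 in PMCA IP, and the ratios of summed reads were 30.0 (8.08 to 251) and 14.3 (5.36 to 53.9). Input libraries with 0 reads are listed at -0.66 for every gene, so the fitted Plcd1 difference (4.92 and 4.55, adjusted p = 7.18e-04 and 0.00197) depends on the prior count. Plcd3 was not tested: it had 16 reads in control IP and 0 in control input, a ratio of at least 3.44 when the group is set to the floor of 3 reads, and 16 and 4 reads in PMCA mice (ratio 3.09, 0.998 to 12.7).

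Plce1, the phospholipase that Ras proteins regulate, was higher in IP in every mouse and was the member with the smallest p for PMCA against control. Its levels were 5.87, 4.43, 5.09 and 4.64 in control input and 7.68, 7.45, 7.49 and 6.74 in control IP (log2 fold change 2.33, SE 0.32, adjusted p = 4.29e-06). In PMCA mice they were 5.05, 5.30, 5.45 and 5.77 in input and 8.07, 7.69, 8.25 and 8.08 in IP (log2 fold change 2.63, SE 0.23, adjusted p = 8.23e-09). Input and IP libraries of Plce1 did not overlap in either treatment. Plcg1, activated by growth factor receptors, was called higher in control mice (5.41 ± 0.22 in input and 6.39 ± 0.29 in IP, SD, n = 4 each; 0.99, adjusted p = 0.00491) but not in PMCA mice (0.63, adjusted p = 0.102). Voom weights brought that PMCA value to 0.71 with adjusted p = 0.0376, and the difference between the treatments was -0.36 (adjusted p = 0.929). Plcg2, an enzyme of immune cells including microglia, was not tested between fractions and had 20 IP and 13 input reads in control mice (ratio 0.993, 0.470 to 2.17) and 46 and 22 in PMCA mice (1.62, 0.953 to 2.82).

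**Figure D2:**
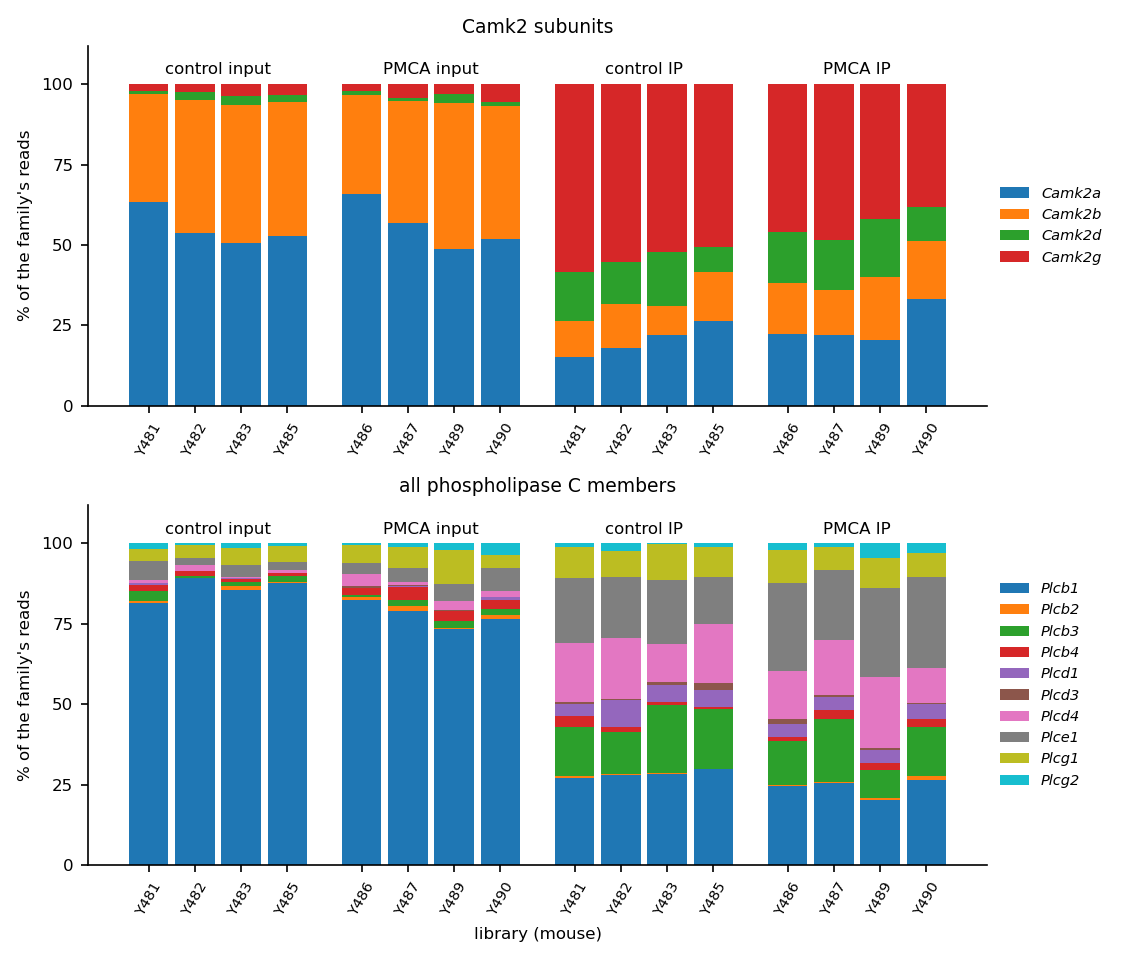
Share of reads (y axis, % of the summed reads of the family) held by each Camk2 subunit gene (top) and each phospholipase C gene (bottom) in the 16 libraries, ordered by group and mouse. Camk2g fills 2.12% to 3.7% of control input and 50.7% to 58.3% of control IP bars, and Plcb1 fills 81.6% to 89.3% and 27% to 29.9%.

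Promoters are shown for the Gq-linked enzymes that moved apart, Plcb1 and Plcb3, and for Plce1, each as the 250 bases before 1 annotated RefSeq start in GRCm38.p6, written 5′ to 3′ along the gene. The windows were searched on both strands for the GC box (GGGCGG), the CCAAT box (CCAAT), the TATA box (TATAAA) and the cyclic AMP response element (TGACGTCA). Capitals mark the matches, which were all GC boxes. The Plcb1 window is chr2:134785914-134786163 (plus strand), the Plcb3 window chr19:6969815-6970064 (minus strand) and the Plce1 window chr19:38523947-38524196 (plus strand), the last pair at starts inside the annotated genes (chr19:6953708-6975006 and chr19:38481034-38785105).
Plcb1: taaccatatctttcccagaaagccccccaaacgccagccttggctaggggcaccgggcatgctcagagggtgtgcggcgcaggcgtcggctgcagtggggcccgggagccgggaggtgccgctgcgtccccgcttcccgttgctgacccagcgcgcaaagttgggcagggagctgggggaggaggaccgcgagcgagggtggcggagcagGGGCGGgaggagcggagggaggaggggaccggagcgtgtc
Plcb3: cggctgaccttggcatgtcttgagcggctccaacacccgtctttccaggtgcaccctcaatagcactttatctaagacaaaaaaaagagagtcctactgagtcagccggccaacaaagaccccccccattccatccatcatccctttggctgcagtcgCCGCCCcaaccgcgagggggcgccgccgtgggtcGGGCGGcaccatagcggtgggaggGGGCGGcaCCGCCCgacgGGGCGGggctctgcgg
Plce1: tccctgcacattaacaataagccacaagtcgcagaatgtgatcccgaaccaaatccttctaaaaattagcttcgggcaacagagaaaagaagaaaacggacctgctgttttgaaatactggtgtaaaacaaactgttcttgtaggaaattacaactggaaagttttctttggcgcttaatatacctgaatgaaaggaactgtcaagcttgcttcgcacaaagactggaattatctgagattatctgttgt

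The 3 windows differed in composition, with 71.2% G and C for Plcb1, 64.4% for Plcb3 and 38.8% for Plce1, and with 1, 5 and 0 GC boxes. GC boxes were found in 35.7% of all 32851 RefSeq windows of 300 bases (250 before and 50 after a start), CCAAT boxes in 37.4%, TATA boxes in 13.6% and the cyclic AMP element in 1.79%. Of the 43 members, 33 matched a window, 43 windows in all. A GC box was in a window of 4 of the 7 matched members that were higher in control IP and of 11 of the 12 that were lower, a CCAAT box in 2 and 4, and a TATA box in 1 and 0. The cyclic AMP element was in a window of 2 members, Prkcz and Rcan1. Member counts are per gene, over 1 or more windows each, while the shares over all RefSeq windows are per window. The 2 are therefore not comparable, and no enrichment was tested. These matches describe the letters of the windows and are not sites of binding.

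Protein kinase C, which diacylglycerol activates, was mostly lower in the precipitate. Of 9 tested rows in control mice 5 were lower, 2 were higher (Prkcd and Prkcsh) and 2 were not called. Of 7 tested in PMCA mice 5 were lower, 1 was higher (Prkcsh) and 1 was not called. Prkcsh and Prkcdbp are counted among these rows by name and are not kinases. Over all tested genes 26.9% were lower in control and 26.6% in PMCA mice. Prkch and Prkcz in both treatments passed the read filter only through input, and Prkcdbp in control mice only through IP. The summed level of the 10 rows went from 3272 ± 99.3 CPM in control input to 664 ± 34.6 CPM in control IP, and from 3184 ± 192 to 672 ± 86.6 CPM in PMCA mice (SD, n = 4 each).

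Prkca and Prkcb, conventional kinases that need calcium as well as diacylglycerol, were lower in IP. Prkcb stood at 11.17 ± 0.10 in control input and 8.03 ± 0.20 in control IP (log2 fold change -3.14, SE 0.12, adjusted p = 1.89e-13), and the difference in PMCA mice was -3.09. Prkca differed by -1.33 and -1.02 (adjusted p = 2.73e-04 and 5.48e-04). For either gene every IP library was below every input library.

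Among the kinases that respond to diacylglycerol without calcium, Prkce and Prkch were lower in IP and Prkcd was higher in control mice. Prkcd stood at 3.25, 3.17, 5.09 and 3.13 in control input and 5.77, 5.70, 5.59 and 5.71 in control IP, with no overlap (log2 fold change 2.03, SE 0.50, adjusted p = 0.00189). In PMCA mice it stood at 5.46, 3.26, 4.47 and 4.61 in input and 5.02, 2.28, 5.59 and 4.72 in IP, overlapping, and it did not reach the read filter there. Prkch stood at 5.76, 5.99, 6.29 and 6.49 in control input and 1.21, 2.35, 3.51 and -0.66 in control IP. Its PMCA libraries read 6.11, 5.98, 5.96 and 5.71 in input and 3.74, 3.48, 3.03 and 3.37 in IP. Its fractions did not overlap (control -4.53, adjusted p = 1.66e-04; PMCA -2.54, adjusted p = 3.32e-05), and its 8 IP and 90 input reads in control mice and 19 and 84 in PMCA mice gave 17.4-fold (8.48 to 41.6) and 5.72-fold (3.45 to 9.97) less in IP. Prkch passed the read filter only through input in both treatments, so its difference was built in. Prkce changed by -2.43 and -2.61 (adjusted p = 9.13e-10 and 1.41e-09). Prkcq, known from T cells, was not tested and had 5 IP and 12 input reads in control mice (3.72-fold lower, 1.22 to 13.5) and 7 and 15 in PMCA mice (2.77-fold lower, 1.06 to 8.04).

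The atypical kinases respond to neither messenger, and they differed from each other. Prkcz stood at 7.12, 7.36, 7.86 and 7.44 in control input and 3.64, 4.38, 3.21 and 3.76 in control IP (log2 fold change -3.70, SE 0.33, adjusted p = 1.32e-08). With PMCA its level was 6.90, 7.28, 7.05 and 7.53 in input and 4.52, 3.48, 4.68 and 4.32 in IP (log2 fold change -2.94, SE 0.31, adjusted p = 1.49e-07). Prkcz was thus lower in every IP library than in any input library. It passed the read filter only through input in both treatments, so a difference was built in. Prkci was not called, with 0.36 (95% interval -0.32 to 1.04) in control and 0.12 (-0.46 to 0.70) in PMCA mice. Apart from the kinases, Prkcsh encodes a subunit of glucosidase II of the endoplasmic reticulum and Prkcdbp (now Cavin3) a protein of caveolae. Prkcsh stood at 5.50, 4.12, 5.71 and 4.79 in control input and 6.12, 5.70, 5.93 and 6.29 in control IP, and at 5.20, 5.60, 5.64 and 4.61 and 5.97, 6.13, 6.73 and 5.79 in PMCA mice. The fractions overlapped in control mice and not in PMCA mice. It was called higher (0.98, adjusted p = 0.0275 in control; 0.90, adjusted p = 0.0227 in PMCA mice), but not without Y482 (adjusted p = 0.0929) or Y485 (0.146) in control or without Y489 (0.0762) or Y490 (0.0642) in PMCA mice. Prkcdbp was at 1.27 in control mice (adjusted p = 0.0513), just short of the threshold, which it passed under 4 other settings (adjusted p from 0.0151 to 0.166 over all settings). In control mice it passed the read filter only through IP, and it was not tested between fractions of PMCA mice.

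Calmodulins are the calcium sensors of the pathway, and Calm2 and Calm3 were lower in the precipitate by unequal amounts. They lie on chromosomes 17 and 7 and encode the same protein, and whether reads with several matches were counted is not given in the sources used here. Calm2 stood at 9.60, 10.11, 10.24 and 10.33 in control input and 6.93, 7.03, 6.64 and 7.23 in control IP (log2 fold change -3.11, SE 0.17, adjusted p = 2.04e-11). In PMCA mice it stood at 9.85, 10.10, 10.18 and 10.11 in input and 6.70, 7.25, 6.51 and 6.56 in IP (log2 fold change -3.31, SE 0.17, adjusted p = 5.96e-12). The fractions of Calm2 were far apart in both treatments. Calm3 stood at 9.70, 10.05, 10.19 and 10.19 in control input and 9.10, 9.03, 8.99 and 8.67 in control IP (log2 fold change -1.09, SE 0.14, adjusted p = 1.74e-06). Its PMCA libraries ran from 9.65 to 10.34 in input and stood at 9.09, 8.98, 8.49 and 8.97 in IP (log2 fold change -1.13, SE 0.16, adjusted p = 7.63e-06). For Calm3 too every IP library was below every input library, by a smaller gap.

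**Figure D3:**
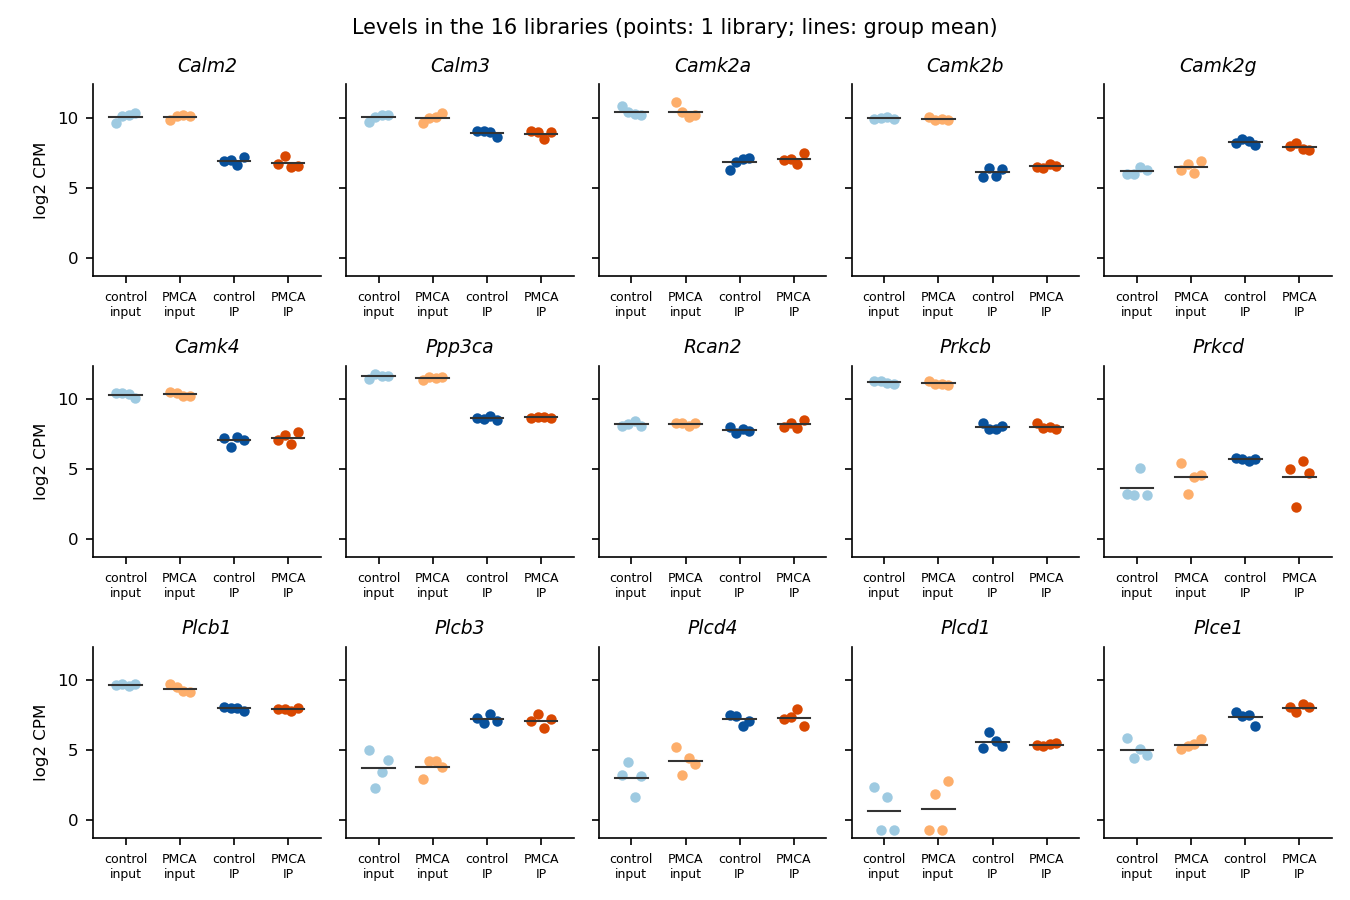
Level (y axis, deposited log2 CPM) of 15 members in the 16 libraries, with 1 point per library and a line at each group mean; x axis, the 4 groups. Calm2 falls from about 10.07 ± 0.32 to 6.96 ± 0.25 (SD) between control input and IP, Camk2g and Plce1 rise, and the points of Plce1 in PMCA IP (8.07, 7.69, 8.25 and 8.08) all lie above those in control IP.

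The CaM kinase rows were mostly lower in IP, while the gamma subunit of CaM kinase II was higher in both treatments. Of 10 tested rows, 7 were lower and 1 (Camk2g) was higher in control mice, and 8 were lower and 2 (Camk2g and Camk2d) were higher in PMCA mice. Over all tested genes 26.9% were lower and 28.5% higher in control mice, and 26.6% and 28.1% in PMCA mice. CaM kinase II is a ring of subunits made by Camk2a, Camk2b, Camk2d and Camk2g, of which the alpha and beta forms are known as the main neuronal ones. Camk2a stood at 10.86, 10.38, 10.27 and 10.24 in control input and 6.26, 6.84, 7.09 and 7.16 in control IP (log2 fold change -3.60, SE 0.19, adjusted p = 2.24e-11). Its PMCA libraries read 11.14, 10.41, 10.06 and 10.18 in input and 6.98, 7.04, 6.73 and 7.50 in IP (log2 fold change -3.39, SE 0.22, adjusted p = 4.49e-10). No IP library of Camk2a came near the input libraries. Camk2b stood at 9.95, 10.01, 10.04 and 9.91 in control input and 5.82, 6.46, 5.82 and 6.38 in control IP (log2 fold change -3.86, SE 0.17, adjusted p = 1.14e-12). With PMCA its level was 10.05, 9.81, 9.95 and 9.84 in input and 6.51, 6.41, 6.69 and 6.61 in IP (log2 fold change -3.36, SE 0.15, adjusted p = 9.07e-13). The fractions of Camk2b were as far apart, with no overlap.

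Camk2g moved the other way. It stood at 5.98, 5.99, 6.51 and 6.31 in control input and 8.18, 8.46, 8.34 and 8.10 in control IP (log2 fold change 2.08, SE 0.19, adjusted p = 2.66e-08). The PMCA mice had it at 6.32, 6.72, 6.09 and 6.93 in input and 8.02, 8.18, 7.77 and 7.69 in IP (log2 fold change 1.40, SE 0.22, adjusted p = 1.65e-05). Every IP library of Camk2g was above every input library. Camk2d, with overlapping fractions in both treatments, differed by 0.62 in control mice (adjusted p = 0.138) and was called higher in PMCA mice (1.18, adjusted p = 0.00433, but 0.0521 without Y487). No CaM kinase row was called for the difference between the treatments. As a share of Camk2 reads, Camk2g went from 2.94% ± 0.742 in control input to 54.1% ± 3.4 in control IP, Camk2d from 2.01% ± 0.791 to 13.2% ± 4.06, Camk2a from 55% ± 5.69 to 20.4% ± 4.82 and Camk2b from 40% ± 4.31 to 12.3% ± 2.77 (SD, n = 4 each). In PMCA mice Camk2g went from 3.81% ± 1.39 to 43.6% ± 4.52 and Camk2d from 1.56% ± 0.846 to 15% ± 3.03. Camk2a went there from 55.9% ± 7.37 to 24.45% ± 5.985 and Camk2b from 38.7% ± 6.13 to 17% ± 2.43. Shares were not tested between the treatments.

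The window before the Camk2b start, the CaM kinase gene with the largest fall in control mice, is shown in the same way. It is chr11:6065749-6065998 (minus strand), at a start inside the annotated gene (chr11:5969629-6066357), and holds 78.4% G and C and 3 GC boxes, of which the last 2 overlap, and none of the other motifs.
Camk2b: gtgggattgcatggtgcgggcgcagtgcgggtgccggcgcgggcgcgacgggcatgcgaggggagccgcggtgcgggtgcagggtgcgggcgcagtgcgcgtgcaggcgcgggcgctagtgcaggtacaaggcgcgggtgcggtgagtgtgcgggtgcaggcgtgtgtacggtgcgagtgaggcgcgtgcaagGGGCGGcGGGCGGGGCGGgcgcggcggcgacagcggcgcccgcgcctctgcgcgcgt

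Of the other kinases of the cascade, those tested were lower in IP, except Camkk1 in control mice, which was not called. Camk4, a nuclear kinase that acts on gene transcription, stood at 10.44, 10.39, 10.32 and 10.09 in control input and 7.24, 6.60, 7.26 and 7.08 in control IP (log2 fold change -3.26, SE 0.16, adjusted p = 2.95e-12). In PMCA mice it stood at 10.47, 10.41, 10.23 and 10.23 in input and 7.07, 7.42, 6.76 and 7.65 in IP (log2 fold change -3.11, SE 0.17, adjusted p = 1.53e-11). The fractions of Camk4 did not overlap. Camkk2, a kinase that activates Camk1 and Camk4, changed by -2.80 in control and -2.49 in PMCA mice, and Camk1d by -2.00 and -1.73 (adjusted p from 2.26e-08 to 1.72e-05 over these 4 values). Camkk1, the other such kinase, was at -0.14 in control mice (adjusted p = 0.786; 0.18 without Y485) and changed by -1.42 in PMCA mice (adjusted p = 0.00872). In PMCA mice it passed the read filter only through input. For the difference between the treatments in IP against input, limma called 0 of 11 tested CaM kinase rows. Camk1 and Camk1g were not tested between fractions. Camk1 had 58 IP and 19 input reads in control mice (ratio 1.97, 1.16 to 3.50) and 27 and 36 in PMCA mice (0.580, 0.339 to 0.982), and IP exceeded input in 4 of 4 control and 1 of 4 PMCA mice. Camk1g had 6 and 32 reads in control mice (8.27-fold lower in IP, 3.41 to 24.2) and 1 and 30 in PMCA mice (38.8-fold lower, 6.45 to 1583).

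Several rows carry the Camk prefix without being CaM kinases. Camk2n1 and Camk2n2 encode inhibitors of CaM kinase II, Camkv a kinase-like vesicle protein and Camkmt an enzyme that methylates calmodulin. Camk2n1 changed by -2.27 in control and -2.35 in PMCA mice, and Camkv by -3.23 and -3.93 (adjusted p from 3.51e-11 to 1.11e-08 over these 4 values). Camk2n2 and Camkmt were not tested, with 3 IP and 13 input reads each in control mice (6.72-fold lower in IP, 1.85 to 36.8). In PMCA mice Camk2n2 had 2 and 17 reads (11.0-fold lower, 2.61 to 98.1) and Camkmt 18 and 7 (ratio 1.99, 0.792 to 5.63).

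Calcineurin is the phosphatase that calmodulin switches on, and its tested subunits were lower in IP. Of 6 tested rows, 4 were lower and none higher in control mice (Ppp3ca, Ppp3cb, Ppp3r1 and the regulator Rcan2), and 3 were lower and none higher in PMCA mice. Over all tested genes 26.9% were lower in control and 26.6% in PMCA mice. Ppp3ca and Ppp3cb encode catalytic subunits and Ppp3r1 the regulatory one. Ppp3ca stood at 11.42, 11.75, 11.61 and 11.66 in control input and 8.60, 8.55, 8.80 and 8.47 in control IP (log2 fold change -3.01, SE 0.11, adjusted p = 1.05e-13). Its PMCA libraries read 11.34, 11.54, 11.48 and 11.55 in input and 8.62, 8.69, 8.74 and 8.65 in IP (log2 fold change -2.80, SE 0.12, adjusted p = 3.40e-13). The subunit gene was lower in every IP library. Ppp3r1 stood at 9.39, 9.89, 9.98 and 9.86 in control input and 6.91, 7.08, 6.64 and 7.02 in control IP (log2 fold change -2.87, SE 0.16, adjusted p = 2.61e-11). With PMCA its level was 9.37, 9.65, 9.55 and 9.76 in input and 6.93, 6.58, 7.24 and 6.56 in IP (log2 fold change -2.76, SE 0.18, adjusted p = 1.02e-10). Here too input and IP did not overlap. Ppp3cb stood at 7.55, 7.83, 8.07 and 8.06 in control input and 5.90, 5.27, 5.77 and 5.30 in control IP (log2 fold change -2.32, SE 0.23, adjusted p = 6.21e-08). The PMCA mice had it at 8.06, 7.71, 7.91 and 7.73 in input and 5.02, 5.10, 6.09 and 6.34 in IP (log2 fold change -2.21, SE 0.28, adjusted p = 1.41e-06). None of the 3 genes had an IP library above an input library. Ppp3cb (chr14:20499364-20546573) and Camk2g (chr14:20734873-20794157) both lie on chromosome 14 and moved in opposite directions. Genes between them were not looked up. The catalytic subunit gene Ppp3cc, with 43 IP and 24 input reads in control and 29 and 21 in PMCA mice, was not tested (ratios 1.16, 0.686 to 1.99, and 1.07, 0.588 to 1.97).

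The Rcan genes encode proteins that bind and restrain calcineurin. Rcan2 stood at 8.07, 8.18, 8.46 and 8.10 in control input and 7.99, 7.56, 7.87 and 7.70 in control IP. In PMCA mice it stood at 8.26, 8.31, 8.10 and 8.27 in input and 8.02, 8.27, 7.92 and 8.50 in IP. In control mice every IP library was below every input library by a small amount (log2 fold change -0.42, SE 0.16, adjusted p = 0.0325), a call lost without Y482 (adjusted p = 0.156), Y483 (0.150) or Y485 (0.0823), without the filter (0.0502) and without variance trend and robust moderation (0.0944). In PMCA mice the fractions overlapped (-0.06, 95% interval -0.40 to 0.28). Rcan1 was at 0.16 and 0.26 and Rcan3 at 0.21 and 0.48 in control and PMCA mice, all uncalled, with 95% intervals that reached from -0.52 at the lowest to 1.18 at the highest. Without Y481 the control values of Rcan1, Rcan3 and Prkci turned to -0.13, -0.09 and -0.04.

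Other genes of the pathway were read from a list of 79, of which 77 were listed in the data. The list was chosen with earlier results of these data known, so it is no independent support for the member results. In control mice 57 were tested, 9 were higher and 39 were lower in IP, and in PMCA mice 60 were tested, 10 were higher and 41 were lower. Over all tested genes 28.5% were higher and 26.9% lower in control mice, and 28.1% and 26.6% in PMCA mice. Within this list, families split by gene. Of the inositol trisphosphate receptors, Itpr2 was higher in IP (2.98 in control and 2.98 in PMCA mice) and Itpr1 lower (-2.77 and -2.46). Of the kinases that remove inositol trisphosphate, Itpkb was higher (3.76 and 3.57) and Itpka lower (-4.58 in control mice). Gnaq, the Gq subunit that activates phospholipase C beta, was higher (0.71 and 0.54). Of 13 tested calmodulin buffers and small calcium sensors, 11 were lower in control and in PMCA mice, among them neurogranin, Nrgn (-4.90 and -4.10), and hippocalcin, Hpca (-4.46 and -4.42), and the higher ones were S100b and S100a1 (3.35 and 2.50 in control mice). S100b also stands in the astrocyte marker list, Nos1 in the interneuron list and Ppp1r1b in the projection neuron list.

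PMCA against control asks whether the pump changed these genes in astrocyte ribosomes or in the whole tissue. None of the 33 members tested in IP passed limma's test (smallest adjusted p = 0.0799), nor any of 28 in input or of 34 for the difference between the fractions. Over all genes, limma called 0.507% of 7094 in IP, 0.0339% of 5895 in input and 0.0371% of 8091 for the difference. At an unadjusted p under 0.05 there were 5 members in IP, 1 in input and 6 for the difference, against 12.9%, 3.6% and 5.28% of all genes. limma voom on recovered reads called none either. For 27 of the 33 members in IP and 22 of the 28 in input, the 95% interval of the difference lay within 2-fold in either direction, so changes beyond 2-fold lay outside those intervals. The median reach of an interval to either side was 0.47 in IP and 0.39 in input on the log2 scale.

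**Figure D4:**
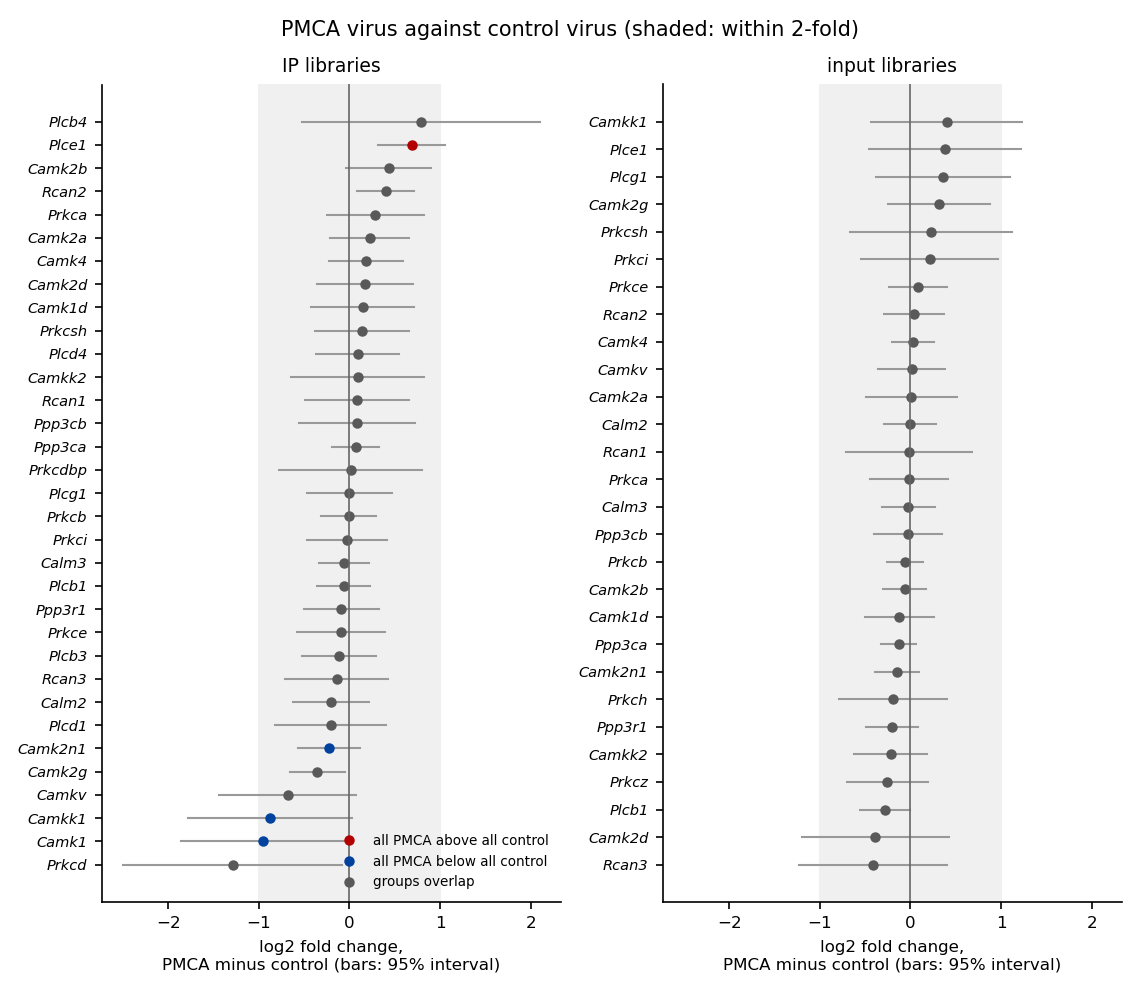
Log2 fold change of PMCA over control virus (x axis, with 95% intervals from limma, 4 and 4 libraries) for the 33 members tested in IP (left) and the 28 tested in input (right). Plce1 in IP (0.69) is the member whose PMCA libraries all lie above the control ones, Camk1, Camkk1 and Camk2n1 have them all below, and in input the groups overlap for every tested member.

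In IP the treatment groups did not overlap for 4 of the 33 members, 1 higher and 3 lower with PMCA, where 6.86% of all tested genes did not overlap. In input this held for 0 of 28 members and 2.53% of all genes. Plce1 was the higher one, at 7.68, 7.45, 7.49 and 6.74 in control IP and 8.07, 7.69, 8.25 and 8.08 in PMCA IP, a 1.61-fold difference (log2 0.69, 95% interval 0.32 to 1.06, SE 0.18, unadjusted p = 6.38e-04, adjusted p = 0.0799). Leaving out Y481 or Y487 brought it past the threshold (adjusted p = 0.0482 and 0.0438), and over all settings its adjusted p ran from 0.0438 to 0.521. In input Plce1 differed by 0.38 (-0.45 to 1.22), and the difference between fractions was 0.31 (-0.51 to 1.12). The 3 lower ones were Camk1 (-0.96, adjusted p = 0.35), Camkk1 (-0.88, adjusted p = 0.401) and Camk2n1 (-0.23, adjusted p = 0.598). Camk1, at 4.70, 5.43, 4.95 and 4.73 in control IP and 3.74, 3.94, 3.97 and 4.32 in PMCA IP, passed the read filter only through the control group. Camkk1 stood at 5.30, 4.89, 4.95 and 4.73 in control IP and 3.74, 4.57, 4.68 and 3.37 in PMCA IP. Plcb4, with too few reads to be tested in input, ran there from 3.07 to 4.21 in control and from 4.47 to 5.19 in PMCA mice. It had 14 reads in control and 36 in PMCA input (ratio of PMCA to control 2.24, 1.18 to 4.49).

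Rcan2 and Camk2g followed Plce1 in order of p in IP. Rcan2 differed by 0.40 on the log2 scale (0.08 to 0.72, adjusted p = 0.284) and Camk2g differed by -0.35 (-0.66 to -0.05, adjusted p = 0.308), with overlapping libraries for either gene. Camk2g differed by 0.32 in input (-0.24 to 0.88), and its difference between fractions was -0.67 (-1.26 to -0.08, adjusted p = 0.913). Prkcd differed by -1.29 in IP (-2.50 to -0.08, adjusted p = 0.354), where the PMCA library Y487, at 2.28, was the lowest, and its difference between fractions was -2.07 (adjusted p = 0.913). In input the smallest p belonged to Plcb1 (-0.28, -0.55 to -0.01), Ppp3r1 (-0.20, -0.48 to 0.09) and Ppp3ca (-0.13, -0.32 to 0.06), each with an adjusted p of 1. Calm2 lay close to 0 in input, at -0.01 (-0.29 to 0.28).

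Markers of other cells moved with the treatment in IP. Microglia markers summed to 98.3 to 177 CPM in control IP and 194 to 559 CPM in PMCA IP, with 2 of 5 tested markers called higher, and to 441 to 785 and 597 to 1316 CPM in control and PMCA input. Plcg2, which microglia are known to express, had 20 reads in control IP and 46 in PMCA IP and was not tested. The ependymal marker Foxj1 was called higher with PMCA in IP. Of 8 tested pan-neuronal markers, Tubb3 was called lower (-1.19, adjusted p = 0.0343), 5 had positive differences and the median was 0.23. Projection neuron markers summed to 1043 to 1196 CPM in control IP and 1081 to 1348 CPM in PMCA IP with 0 of 8 tested called. The part of these cells in the member values was not tested. Among the other genes of the pathway, 0 of 52 tested in IP and 0 of 57 in input were called (limma; 5 and 2 at an unadjusted p under 0.05).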

How the data were processed

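Each of 16 libraries was deposited by the authors as log2 CPM for 13277 genes. Per the submitters' processing notes STAR, HTSeq, edgeR and limma were used with mm10, with versions and settings not given in the sources used here. Libraries were stranded and depleted of ribosomal RNA, per the labels' protocols. The deposited log2 values came out as whole reads for 100% of values in every library (tolerance 0.01 reads), with a prior averaging 0.25 reads. Since the unit is log2, the planned count test was not used: limma 3.58.1 (R 4.3.3; variance trend and robust moderation with statmod 1.5.0, unpaired) was fitted to the log2 values, and voom on recovered reads was an alternative.

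Each comparison used its own 8 libraries, and the difference between fractions used all 16. Genes needed the CPM of 10 reads in a library of median size in at least 4 libraries, and 15 reads in all. Benjamini-Hochberg adjustment ran over all tested genes, with 0.05 as threshold. Intervals are 95%, and the floor for 0 reads is 3 reads over a group. Input and IP come from the same mouse, per the labels. Over 4288 genes their deviations from the group means correlated at 0.0981, 0.0292, 0.055 and 0.092 (Y481, Y482, Y483, Y485) and 0.046, 0.137, 0.153 and -0.0355 (Y486, Y487, Y489, Y490), and a fit with the mouse as block was an alternative. Members, pathway genes and markers were chosen with earlier results of these data known. Of the 45 matching genes, 2 are not reported here; they stayed in the fits across all genes. Levels in every library are given for Calm2, for Calm3 (in PMCA input as a range) and, per role, for called members with the largest or an opposite difference and those with the smallest p for PMCA. Other alternatives were no filter, a pseudocount of 5 CPM, re-centred libraries, plain limma, all 16 libraries in one fit and leaving out each mouse. The fits of PMCA against control in IP and in input were tested on simulated data, with changes placed in PMCA IP. The fits of IP against input and of the difference between fractions were not tested in this way. Promoters are from RefSeq's GRCm38.p6 table. No entry was found there under the symbols Camk4, Calm2, Prkcdbp, Ppp3ca, Ppp3cc, Camk2n1, Camk2a, Camk2g, Prkch and Prkce. Promoters were not looked up under Cavin3, the current symbol of Prkcdbp.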

Additional observations from a re-analysis of the deposited data

Results flagged for a closer look

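Of 122 sets of 4 libraries (1 member in 1 group) examined for a value far from the rest, 3 held such a value by Dixon's test at 95%, and chance alone gives about 1 in 20 sets. All of them are in PMCA IP. Camk1d was at 5.10 log2 CPM in Y487 (16 reads; the others at 6.29 to 6.45), Camk2d at 5.87 in Y490 (18 reads; 6.49 to 6.55) and Plcb4 at 3.74 in Y486 (8 reads; 4.54 to 4.70).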

How the results depend on the processing

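Of 342 refits of members between IP and input of control mice, 327 kept direction and call, and so did 313 of 319 in PMCA mice. Signs turned only for uncalled differences when a mouse was left out: in control mice Camkk1 (-0.56 to 0.18, turned without Y485), Prkci (-0.040 to 0.60), Rcan1 (-0.13 to 0.46) and Rcan3 (-0.087 to 0.40, these 3 turned without Y481), and in PMCA mice Prkci (-0.098 to 0.29, without Y487) and Rcan2 (-0.15 to 1e-04, without Y486). Leaving out a mouse left 5 members called higher in each refit of control mice and 4 in each of PMCA mice. Over all genes it left 1252 to 1361 higher and 1093 to 1371 lower in control mice, and 1233 to 1308 and 1078 to 1238 in PMCA mice. With 3 libraries per fraction a gene that reaches the filter level in 1 fraction has too few libraries and is not tested, as with Plcd1, Prkch and Prkcz in both treatments, Plcd4 in control and Plcb3 and Camkk1 in PMCA mice.

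A fit with each mouse as a replicate block called 8 members higher and 19 lower in control mice and 7 and 19 in PMCA mice, the same counts as unpaired. The replicate block changed no member's call.

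For PMCA against control in IP, members called higher ran from 0 to 1 as mice were left out (1 without Y481 and without Y487, Plce1 each time). Over all genes the 27 higher became 0 in plain limma (no variance trend or robust moderation), 13 with all 16 libraries in one fit and 11 to 35 as mice were left out. The 9 lower became 0 in plain limma, 4 by voom, 2 in one fit and 2 to 18 as mice were left out. In input the 2 higher became 1 after re-centring, in plain limma and by voom, 8 in one fit and 0 to 9 as mice were left out, and 0 to 1 were lower. For the difference between fractions, 1 gene was lower in plain limma against 0. The causes were not tested. Scalings moved the median gene by 0.05 at most. Depth limits the members with few reads: 1 read was worth up to 4.46 CPM, and 10 members in control and 12 in PMCA mice were not tested between fractions.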
